A study of Mus musculus with 8 samples.

Results

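The genes described here are 8 genes of fatty acid oxidation and of its control by PPAR receptors, namely Ppara, Pdk4, Angptl4, Cpt1a, Acadm, Acaa2, Hadha and Ehhadh, out of 19938 genes measured. They were taken by name, with earlier results of these data known. Each was represented by the 1 probe set whose annotation named that gene only. Expression was measured on 8 arrays from epithelial cells isolated from the gut of ICR males aged 8 weeks, whose small intestine had been transfected in the living animal 4 days earlier. In the siRNA arm, 3 control arrays came from epithelium given an siRNA against GFP (siGFP), and 3 arrays came from epithelium given siRNAs against YAP and TAZ (siYAP/TAZ). In the shRNA arm, 1 control array came from epithelium given a plasmid for an shRNA against LacZ (shLacZ), and 1 array came from epithelium given plasmids for shRNAs against YAP and TAZ (shYAP/TAZ). YAP and TAZ are coactivators held back by the Hippo pathway, and they reach DNA through TEAD proteins. The labels name, for each control array, the knockdown array it is the control for, and these 3 siRNA pairs and 1 shRNA pair are the pairs used here. They do not say what the arrays of a pair share, and same-numbered siRNA arrays did not all vary together over the genes. Nor do they say that each array came from its own animal, so the spread behind each p-value could be technical only.

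PPARα, the product of Ppara, is a nuclear receptor that senses fatty acids and, bound to DNA together with an RXR partner, switches on genes for fat uptake and breakdown, as in the fasting liver. In beta-oxidation, Cpt1a passes long-chain fatty acids into the mitochondrion, and a spiral of dehydrogenation, hydration and thiolysis then shortens them. Absorptive enterocytes of the small intestine handle dietary fat and express PPARα.

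The whole data set sets limits on these values. Median deposited intensities lay between 76.4 and 95.5 per array, and Pearson's r between arrays, across genes, lay between 0.765 and 0.963. The first principal component, with 56.8% of the variance, ran across the groups, with scores of 57.5 to 64.5 for siYAP/TAZ 2, siGFP 3 and siYAP/TAZ 3 and -70.3 to -1.67 for the other arrays. The targeted genes were not measurably lower: Yap1 differed by -0.12 (SE 0.32) and Wwtr1, which encodes TAZ, by -0.28 (SE 0.36) on the log2 scale in the siRNA arm, with an adjusted p of 1 for both (limma, Benjamini-Hochberg over all genes). In the shRNA pair they differed by -0.093 and 0.062. The groups are called by their labels throughout. With genes split by mean intensity into 3 equal groups, 0 of 14 enterocyte markers, 8 of 11 B and plasma cell markers and 3 of 6 adipocyte markers lay in the dimmest group. Wwtr1 also lay in the dimmest group, and Yap1 did not. No deposited intensity was 0, and the lowest on each array lay between 16.0005 and 16.0011.

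As a group, the 8 genes stood lower in the arrays labelled siYAP/TAZ, but none passed the test over all genes. All 8 were lower in the mean of the siRNA arm, where 53.6% of all genes were, and their median log2 difference was -0.66 against -0.02 over all genes. The members were chosen with earlier results of these data known. Shares of all genes, here and below, therefore give a scale and no independent test. The mean log2 intensity over the 8 genes was 8.20, 9.03 and 8.59 in siGFP 1, 2 and 3, and 8.00, 7.87 and 7.83 in siYAP/TAZ 1, 2 and 3. It was 9.33 in shLacZ 1 and 8.78 in shYAP/TAZ 1. This mean was thus lower in the knockdown array of each of the 4 pairs, and within the siRNA arm the groups did not overlap, although for no single member did the 3 arrays of one group all lie below those of the other (2.99% of all genes did so with siYAP/TAZ lower). The highest value of 4 of the 8 genes was in shLacZ 1. limma called 0 of 19938 genes in the siRNA arm (0% of genes; 237 had an unadjusted p under 0.05), and 1 member, Angptl4, was lower at an unadjusted p under 0.05, as were 0.762% of all genes.

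**Figure D1:**
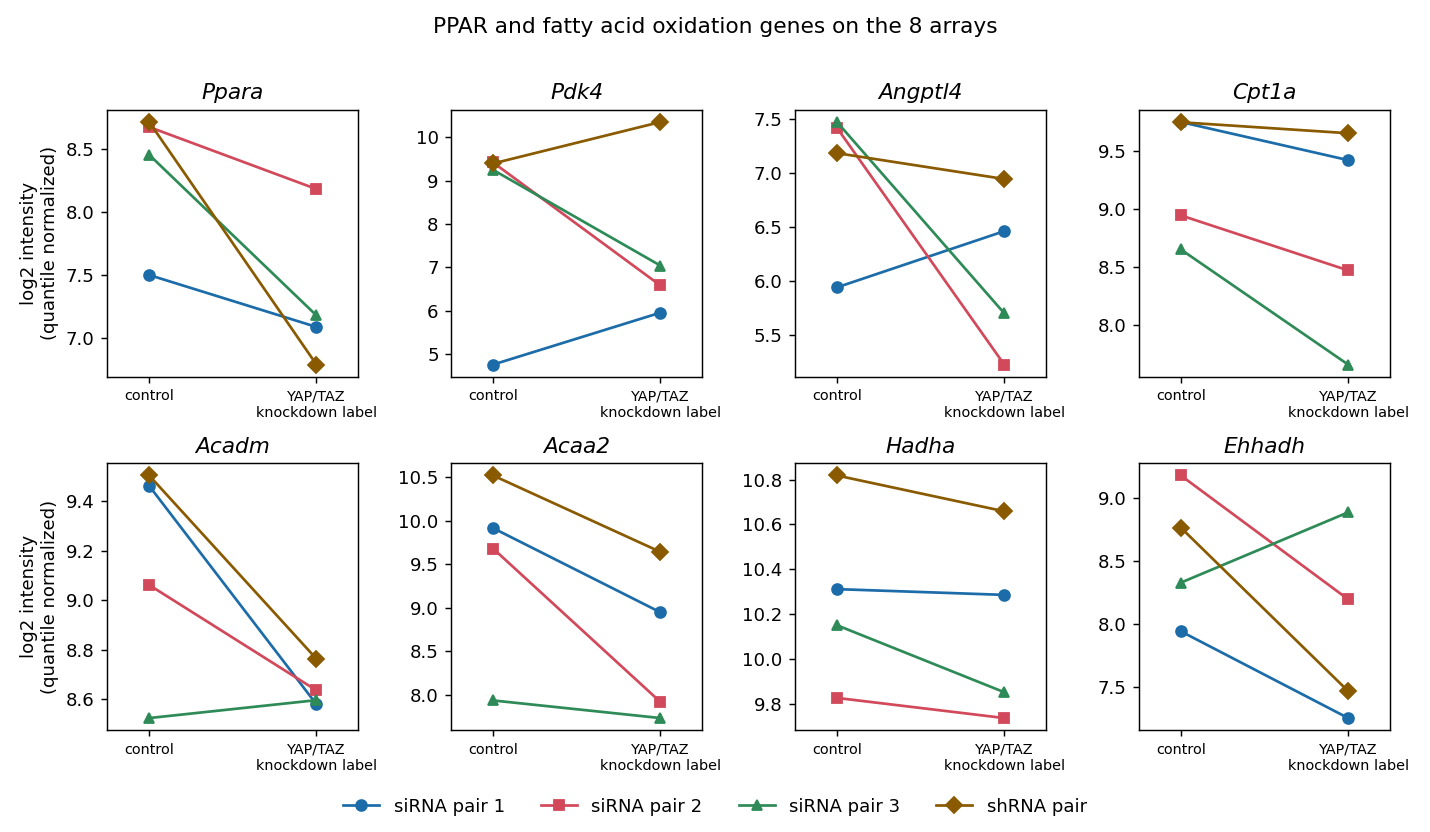
Each panel plots the log2 quantile-normalized intensity of 1 gene on the 8 arrays, controls on the left and arrays labelled as knockdown on the right, with a line joining each of the 4 pairs and axes scaled by gene. Lines for Ppara, Cpt1a, Acaa2 and Hadha all slope down, while those for Pdk4 slope down in siRNA pairs 2 and 3 and up in siRNA pair 1 and the shRNA pair.

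Ppara, the receptor gene itself, was lower in the knockdown array of every pair, with the widest gap in the shRNA arm. Its log2 intensity was 7.50, 8.67 and 8.45 in siGFP 1, 2 and 3, and 7.09, 8.18 and 7.18 in siYAP/TAZ 1, 2 and 3. It was 8.71 in shLacZ 1, the highest of the 8 arrays, and 6.79 in shYAP/TAZ 1, the lowest, a 3.78-fold lower value. The siRNA groups overlapped because siGFP 1 lay below siYAP/TAZ 2. The pair differences were -0.41, -0.49 and -1.27 in siRNA pairs 1, 2 and 3 and -1.92 in the shRNA pair. In the siRNA arm the mean difference was -0.72 (SE 0.43), with a 95% confidence interval from -1.70 to 0.25 (two-sided exact permutation p = 0.2, where 0.1 is the smallest that 3 against 3 arrays allow). Over the 4 pairs it was -1.02 (SE 0.27; 95% confidence interval -1.63 to -0.42), with a limma unadjusted p of 0.00373 and an adjusted p of 0.349. The difference between the arms, 1.20 (SE 0.86), did not pass (limma, adjusted p = 1).

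Pdk4 was the most variable of the 8 genes, and its direction differed between pairs. It encodes the kinase that shuts off the pyruvate dehydrogenase complex and so spares glucose when fat is burnt. Its log2 intensity was 4.76, 9.42 and 9.25 in siGFP 1, 2 and 3, and 5.95, 6.58 and 7.04 in siYAP/TAZ 1, 2 and 3. It was 9.39 in shLacZ 1 and 10.35 in shYAP/TAZ 1. Of the 4 controls, siGFP 1 lay far below the others, which were close together, and below every knockdown array. The range over the 8 arrays, 5.59 on the log2 scale or 48.2-fold, was exceeded by 16 of 19938 genes. Its low end, siGFP 1, was the 1 array on which Pdk4 lay in the dimmest of the 3 groups of genes. The pair differences were 1.20, -2.84 and -2.21 in the siRNA arm and 0.96 in the shRNA pair. The mean siRNA difference was -1.28 (SE 1.09; exact two-sided permutation p = 0.4), and over the 4 pairs it was -0.72 (SE 0.61; limma, adjusted p = 0.882). That 4-pair value was -0.018 without siRNA pair 2, -0.23 without siRNA pair 3 and -1.36 without siRNA pair 1. Without siGFP 1 the siRNA difference was -2.81, and without siGFP 2 or siGFP 3 it was -0.48 or -0.56, so its size depended on which control array was left out.

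Angptl4 had the sign of Pdk4 in siRNA pairs 1, 2 and 3 and the opposite sign in the shRNA pair. It encodes a secreted inhibitor of lipoprotein lipase and is a textbook PPAR target. Its log2 intensity was 5.94, 7.42 and 7.47 in siGFP 1, 2 and 3, and 6.46, 5.23 and 5.70 in siYAP/TAZ 1, 2 and 3. It was 7.18 in shLacZ 1 and 6.94 in shYAP/TAZ 1. Again siGFP 1 lay apart from the other controls, which were close together, and on 3 of 8 arrays Angptl4 lay in the dimmest of the 3 groups of genes. The pair differences were 0.52, -2.19 and -1.77 in the siRNA arm and -0.24 in the shRNA pair. In the siRNA arm the siGFP mean was 6.94 ± 0.87 (SD, n = 3) and the siYAP/TAZ mean 5.80 ± 0.62 (SD, n = 3), a difference of -1.15 (SE 0.49). That is 2.22-fold lower (exact two-sided permutation p = 0.2), and with Pdk4 it made 2 of 8 members at least 2-fold lower in the mean, where 0.426% of all genes were. Pdk4 and Angptl4 had a Pearson r of 0.756 and a Spearman rho of 0.595 over the 8 arrays, given as a description of these arrays.

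Pdk4 and Angptl4 were past the threshold only when the arrays numbered 1 were left out of both groups. That alternative was added with the values above in view. Pdk4 then differed by -2.52 (SE 0.41; limma, adjusted p = 0.00018) and Angptl4 by -1.98 (SE 0.41; limma, adjusted p = 0.00811), each with 2 arrays a group. In that comparison limma called 16 genes lower, 0.0802% of all genes, and 45 higher, and the other 6 members had an adjusted p of 1. The siRNA pair left out was the one in which neither gene was lower in the knockdown array, so the choice followed the outcome, and these values describe pairs 2 and 3 and support no call.

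**Figure D2:**
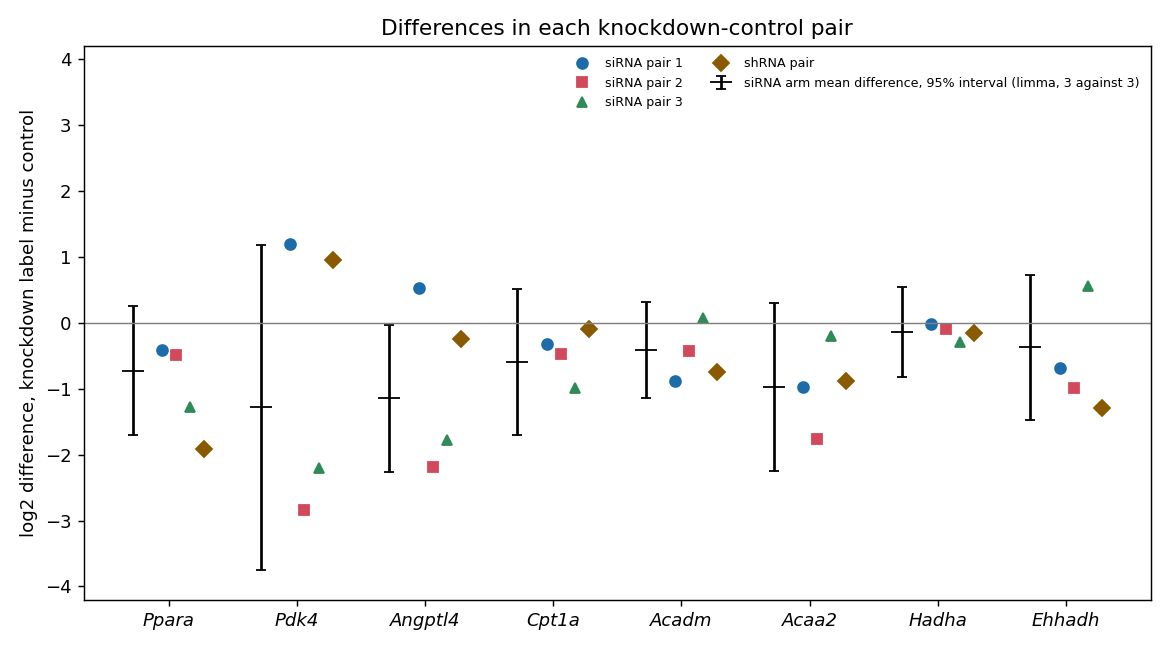
The log2 difference, knockdown label minus control, is plotted for each of the 8 genes in the 3 siRNA pairs and the shRNA pair (coloured points), beside the mean siRNA difference with its 95% confidence interval from limma (black). The intervals of 7 genes include 0; that of Angptl4 runs from -2.27 to -0.03 before adjustment over all genes.

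Of the 4 genes of mitochondrial beta-oxidation, Acaa2 had the widest siRNA mean difference and Hadha the narrowest. Cpt1a, the outer membrane carnitine palmitoyltransferase that admits long-chain fatty acids, had log2 intensities of 9.75, 8.95 and 8.65 in siGFP 1, 2 and 3 and 9.42, 8.47 and 7.66 in siYAP/TAZ 1, 2 and 3. It had 9.75 in shLacZ 1 and 9.66 in shYAP/TAZ 1. Each knockdown array was below its control, by 0.09 to 0.99, and in the siRNA arm the array numbered 1 was the highest and the array numbered 3 the lowest of its group on either side. The groups overlapped, with siYAP/TAZ 3 below every other array. Pair by pair the differences were -0.33, -0.47, -0.99 and -0.09, and the siRNA mean difference was -0.60 (SE 0.49; exact two-sided permutation p = 0.4). It was -0.17 without siYAP/TAZ 3, -0.28 without siGFP 1 and -1.05 without siYAP/TAZ 1. Over the 4 pairs it was -0.47 (SE 0.21; limma unadjusted p = 0.048, adjusted p = 0.666).

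Acadm encodes medium-chain acyl-CoA dehydrogenase, the first step of the spiral for medium-chain substrates. It had 9.46, 9.06 and 8.52 in siGFP 1, 2 and 3, and 8.58, 8.64 and 8.60 in siYAP/TAZ 1, 2 and 3. It had 9.50 in shLacZ 1 and 8.76 in shYAP/TAZ 1. The 4 knockdown arrays were nearly level, between 8.58 and 8.76, whereas the controls ran from 8.52 to 9.50, with siGFP 3 the lowest array of all 8. In siRNA pairs 1, 2 and 3 and the shRNA pair it differed by -0.88, -0.43, 0.07 and -0.74, and the siRNA mean difference was -0.41 (SE 0.32; exact two-sided permutation p = 0.4). It was -0.19 without siGFP 1 and -0.66 without siGFP 3.

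Acaa2, the mitochondrial thiolase that cuts off acetyl-CoA at the end of the spiral, was lower in every pair. It had 9.92, 9.68 and 7.93 in siGFP 1, 2 and 3, and 8.95, 7.92 and 7.73 in siYAP/TAZ 1, 2 and 3. It had 10.52 in shLacZ 1 and 9.64 in shYAP/TAZ 1. The siRNA groups overlapped because siGFP 3 lay near the lowest knockdown arrays, siYAP/TAZ 2 and siYAP/TAZ 3. Those 3 arrays were also the lowest for Cpt1a, and they had the highest scores on the first principal component. The part of that split in these differences was not tested. In siRNA pairs 1, 2 and 3 and the shRNA pair, Acaa2 differed by -0.97, -1.76, -0.20 and -0.88, with a siRNA mean difference of -0.98 (SE 0.56; exact two-sided permutation p = 0.2). Over the 4 pairs the difference was -0.95, a 1.94-fold lower level (SE 0.25; limma unadjusted p = 0.00405, adjusted p = 0.352). Without siGFP 3 the siRNA difference was -1.60, and without siGFP 1 it was -0.61.

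Hadha, the alpha subunit of the mitochondrial trifunctional protein, varied least between the members of a pair. It had 10.31, 9.83 and 10.15 in siGFP 1, 2 and 3, and 10.29, 9.74 and 9.85 in siYAP/TAZ 1, 2 and 3. It had 10.82 in shLacZ 1 and 10.66 in shYAP/TAZ 1. The pair differences, -0.03, -0.09, -0.30 and -0.16, were all below 0 and all small, and with arrays centred on their 75th percentile the first turned to 0.034. The siRNA mean difference was -0.14 (SE 0.30), with a 95% confidence interval from -0.82 to 0.55 (two-sided exact permutation p = 0.6). With 1 siRNA array left out it ranged from -0.30 without siYAP/TAZ 1 to -0.027 without siYAP/TAZ 2.

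Ehhadh, the peroxisomal enzyme that performs the hydratase and dehydrogenase steps there, was lower in 3 of 4 pairs. It had 7.94, 9.18 and 8.33 in siGFP 1, 2 and 3, and 7.25, 8.19 and 8.89 in siYAP/TAZ 1, 2 and 3. It had 8.76 in shLacZ 1 and 7.47 in shYAP/TAZ 1, a 2.46-fold lower value. The pair differences were -0.69, -0.98, 0.56 and -1.30, so siRNA pair 3 ran the other way. The siRNA mean difference was -0.37 (SE 0.48; exact two-sided permutation p = 0.5), and it turned to 0.058 without siYAP/TAZ 1. It was -0.023 without siGFP 2, -0.64 without siGFP 1 and -0.76 without siYAP/TAZ 3. Over the 8 arrays, Pearson's r of Ehhadh was 0.683 with Ppara (Spearman's rho 0.690) and -0.472 with Cpt1a (rho -0.405), while Cpt1a and Acaa2 had an r of 0.864 (rho 0.905). These values describe arrays that all members share.

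Across the 4 pairs, 4 of 8 members (Ppara, Cpt1a, Acaa2 and Hadha) were lower in all 4, where 8.95% of all genes were, and 7 of 8, all but Pdk4, were lower in at least 3, where 34.2% were. In the fit over the 4 pairs, which shares 6 arrays with the siRNA comparison, 5 of 8 members were lower at an unadjusted p under 0.05, beside 4.7% of all genes; they were Ppara, Acaa2, Acadm, Angptl4 and Cpt1a. None passed the adjusted threshold (limma, smallest adjusted p among the members 0.349 for Ppara). That fit called 4 genes in all, 0.0201% of those tested: B3galt5 and B3gnt7 higher and Rdh7 and Olfr165 lower, named after their values were seen. Without the pair as a block, limma called 0 genes, and 1 of 8 members, Ppara, was lower at an unadjusted p under 0.05, beside 1.84% of all genes. By an exact two-sided sign-flip permutation test over the 4 pair differences, each member lower in all 4 had the smallest p this design allows, which lies above 0.05. In the shRNA pair alone, which has no replicates, 7 of 8 members were lower, beside 52.2% of all genes, and 2 of 8, Ppara and Ehhadh, were at least 2-fold lower, beside 2.76%. The member median there was -0.49 against -0.02 over all genes. No gene passed the test of a difference between the arms (limma, 0% of genes; 70 had an unadjusted p under 0.05), in which the lone shRNA arrays are assumed to vary like the siRNA arrays.

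Promoter sequence was looked at because PPARα and TEAD proteins act through known DNA words. Promoters of 6 of the 8 genes were taken from a RefSeq table (GRCm38.p6), and the 250 bases before each start were searched on both strands. None was found for Angptl4. None was used for Acaa2, whose chromosome was left out of the member search but not of the shares over all promoters. The PPAR word was a direct repeat of AGGTCA with 1 base of any kind between the copies and up to 3 mismatches at its 12 fixed bases, and the TEAD word was GGAATG with none. The PPAR word was found in 1 of the 6 windows, that of Acadm, and in 21.3% of 32851 promoters. The TEAD word was found in 2 of the 6 windows, those of Cpt1a and Ehhadh, and in 12.6% of all promoters. None of the 6 windows held both words, so their position relative to each other could not be looked at. The windows with a match are shown 5′ to 3′ along the gene, with the matched bases in capitals: the PPAR word on the opposite strand for Acadm, and the TEAD word on the gene's strand for Cpt1a and on the opposite strand for Ehhadh.
Acadm, chr3:153944644-153944893, minus strand: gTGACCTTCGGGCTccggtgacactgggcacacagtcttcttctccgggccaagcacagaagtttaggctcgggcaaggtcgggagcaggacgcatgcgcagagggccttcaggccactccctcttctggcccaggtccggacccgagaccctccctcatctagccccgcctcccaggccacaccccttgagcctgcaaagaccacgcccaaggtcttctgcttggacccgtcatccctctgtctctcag
Cpt1a, chr19:3323051-3323300, plus strand: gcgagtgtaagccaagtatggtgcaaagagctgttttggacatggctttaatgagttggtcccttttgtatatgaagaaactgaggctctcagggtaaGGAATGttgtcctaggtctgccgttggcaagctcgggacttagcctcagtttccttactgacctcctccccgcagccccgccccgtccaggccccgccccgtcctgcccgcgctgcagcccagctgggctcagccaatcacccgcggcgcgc
Ehhadh, chr16:21787835-21788084, minus strand: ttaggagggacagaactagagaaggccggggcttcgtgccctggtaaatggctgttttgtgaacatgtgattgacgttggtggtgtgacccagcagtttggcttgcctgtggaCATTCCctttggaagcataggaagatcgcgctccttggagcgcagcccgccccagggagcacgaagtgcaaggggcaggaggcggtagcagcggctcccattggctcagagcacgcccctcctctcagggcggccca
The PPAR match of Acadm starts 249 bases before the gene's start and has 3 mismatches. The TEAD matches start 152 bases before the start of Cpt1a and 137 bases before that of Ehhadh. A match is a description of letters and not a binding site, and windows without one, such as those of Ppara, Pdk4 and Hadha, say nothing of binding elsewhere.

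Other genes of the pathway were taken from 5 lists, of which 78 of 87 further genes were analysed here. Of the 78, 54 (69.2%) were lower in the mean of the siRNA arm, beside 53.6% of all genes, and their median log2 difference was -0.11. None passed over all genes in the siRNA arm or over the 4 pairs (limma), and 6 lay below the controls without overlap and 0 above (2.99% and 1.6% of all genes). In all 4 pairs, 13 of the 78 were lower and 2 higher, as were 8.95% and 6.02% of all genes. Taken singly, siRNA pairs 1, 2 and 3 had 62.8%, 66.7% and 48.7% of the 78 lower, and the shRNA pair 66.7%. The shares of all genes were 53.0%, 48.9%, 54.5% and 52.2%. The median siRNA difference of the 8 members was -0.66.

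Among receptors, partners and coactivators, 5 of 11 had a lower siYAP/TAZ mean, and the median difference was 0.0033. Rxra, a DNA-binding partner of PPARα, had 8.76, 8.50 and 8.59 in siGFP 1, 2 and 3 and 7.96, 7.97 and 8.17 in siYAP/TAZ 1, 2 and 3. The groups did not overlap, and the difference was -0.58 (SE 0.27; limma, adjusted p = 1; exact two-sided permutation p = 0.1). It was also lower in the shRNA pair, by 0.42, so Rxra and Ppara were both lower in all 4 pairs. Esrra, an orphan receptor of mitochondrial genes, differed by 0.40 (SE 0.46) and Hnf4a, an enterocyte and liver regulator, by -0.38 (SE 0.30).

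Of 20 other PPAR target genes, 13 were lower in the mean (median -0.09). In the shRNA pair 8 of the 20 were lower, with a median of 0.14. Pdk2, another kinase of pyruvate dehydrogenase, was lower in all 4 pairs, by 1.33, 0.74, 0.68 and 0.53, with non-overlapping siRNA groups and a mean difference of -0.92 (SE 0.35; limma, adjusted p = 1). Cyp4a10, a fatty acid hydroxylase, was bright in 2 control arrays only, at 7.48 in siGFP 2 and 7.44 in shLacZ 1, with the other 6 arrays between 4.64 and 5.27. It shares sequence with other Cyp4a genes, so its signal is uncertain as a single gene. Fabp1, the fatty acid binding protein of the proximal gut and liver, had 5.28, 11.33 and 10.16 in siGFP 1, 2 and 3 and 10.24, 8.79 and 11.65 in siYAP/TAZ 1, 2 and 3. siGFP 1 was again the low array, and the mean difference was 1.30 (SE 1.40).

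Mitochondrial oxidation genes other than the members were lower in the mean for 17 of 21 (median -0.13). Acad11, an acyl-CoA dehydrogenase, was lower in all 4 pairs, by 1.11, 0.77, 0.07 and 1.58. Hadh, the short-chain hydroxyacyl-CoA dehydrogenase, differed by -0.49 (SE 0.36) in the siRNA arm. Acadl, long-chain acyl-CoA dehydrogenase, ran against the members, with pair differences of 1.22, 0.54, -0.18 and 0.88. So Acadm and Acadl, neighbours in the same step, had opposite signs in siRNA pairs 1, 2 and 3 and in the shRNA pair.

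Peroxisomal oxidation genes were lower for 13 of 16 (median -0.22). Abcd3, a peroxisomal fatty acid transporter, was lower in all 4 pairs, by 0.62, 0.47, 1.03 and 1.50, with non-overlapping siRNA groups and a mean difference of -0.71 (SE 0.28; limma, adjusted p = 1). Crot, the peroxisomal carnitine octanoyltransferase, differed by -0.65 (SE 0.64) and Hsd17b4, the second bifunctional enzyme of the peroxisome, by -0.54 (SE 0.47). For fatty acid activation and binding genes, 6 of 10 were lower (median -0.10). Slc27a2, a very-long-chain acyl-CoA synthetase and transporter, differed by -1.08 (SE 0.50) and was lower in all 4 pairs, Slc27a1 differed by -0.51 (SE 0.39) and Fabp2, the intestinal fatty acid binding protein, by -0.34 (SE 0.37).

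**Figure D3:**
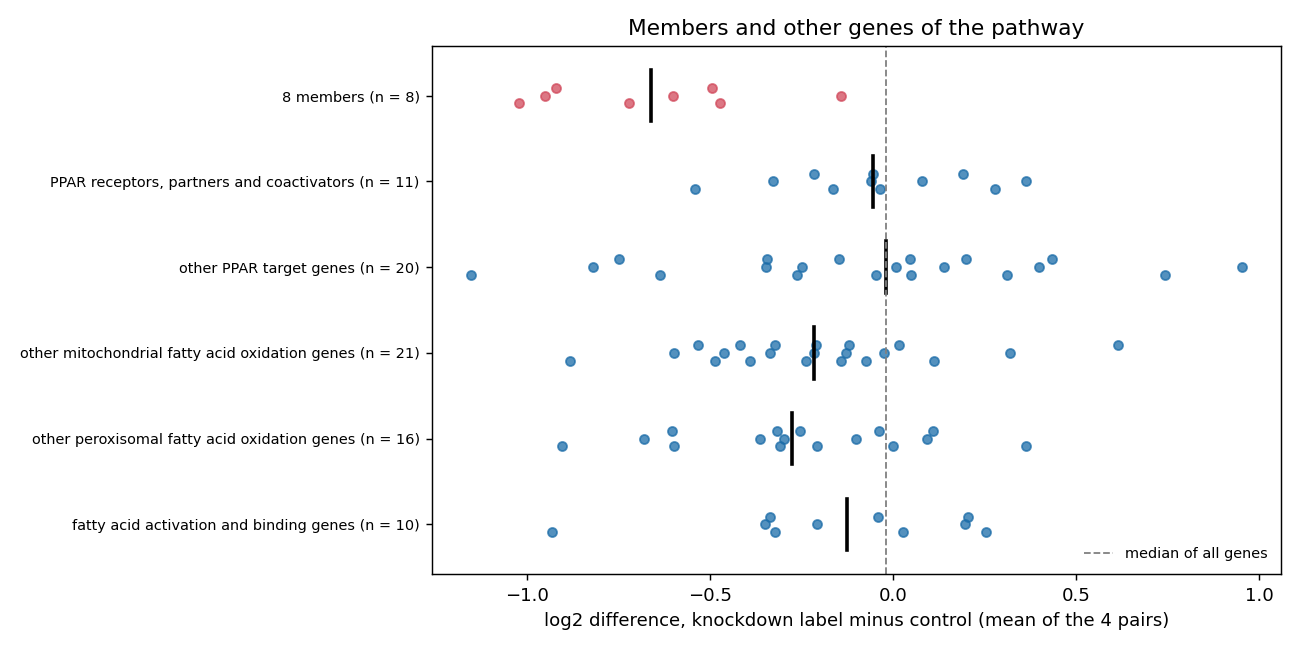
Each point is 1 gene, placed at its log2 difference, knockdown label minus control, averaged over the 4 pairs; black bars are list medians and the dashed line is the median of all genes. The members have a median of -0.66, against -0.28 for the other peroxisomal genes and -0.22 for the other mitochondrial genes. The median is -0.13 for fatty acid activation and binding genes and -0.06 for receptors, partners and coactivators. For other PPAR target genes it is -0.02, as over all genes.

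Marker lists of cell types and gut regions also varied between arrays. Proximal small intestine genes had a mean log2 intensity of 7.79 in siGFP 1, the lowest of the 8 arrays, and 9.90 in siGFP 2, the highest; ileal genes stood at 10.26 and 8.22 in the same arrays. siGFP 1 was also the lowest array for Pdk4. Summed levels of the 14 enterocyte markers ran from 38051 to 71485 in siGFP and from 30014 to 67216 in siYAP/TAZ. Those of the 10 crypt base stem cell markers ran from 1158 to 6752 and from 910 to 2946. Summed levels of the 9 mitotic genes lay between 473 and 572 in siYAP/TAZ 2, siGFP 3 and siYAP/TAZ 3. On the other arrays they lay between 2123 and 4005. Several lists were lower in the siRNA mean, as the members were (8 of 8, median -0.66): 10 of 10 crypt base markers (median -0.87), 6 of 6 Paneth cell markers (median -0.71), 8 of 9 mitotic genes (median -0.61), 6 of 7 goblet cell markers (median -0.35) and 10 of 14 enterocyte markers (median -0.34). By siRNA pair 1, 2 and 3 and the shRNA pair, the members were lower for 6, 8, 6 and 7 of 8. Mitotic genes were lower for 0, 9, 6 and 3 of 9, and Paneth cell markers for 4, 6, 2 and 6 of 6. Crypt base markers were lower for 7, 10, 6 and 10 of 10. Goblet cell markers were lower for 6, 1, 7 and 5 of 7, and enterocyte markers for 9, 11, 8 and 11 of 14. Summed levels of the 11 B and plasma cell markers ran from 400.1 to 570.1 and from 370 to 2768, highest in siYAP/TAZ 2 and siYAP/TAZ 3, the arrays lowest for Angptl4. Those of the 6 adipocyte markers, cells that express Angptl4 and Pdk4, ran from 398 to 1253 and from 797 to 1316. In bulk samples fewer cells of a type and less RNA per cell cannot be told apart, and the part of gut region, crypt, Paneth, goblet and enterocyte content or lymphocytes in the differences of the 8 genes was not tested. Over the same arrays, the summed level of the 8 genes ran from 3608 to 4598 in siGFP and from 2527 to 3250 in siYAP/TAZ.

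**Figure D4:**
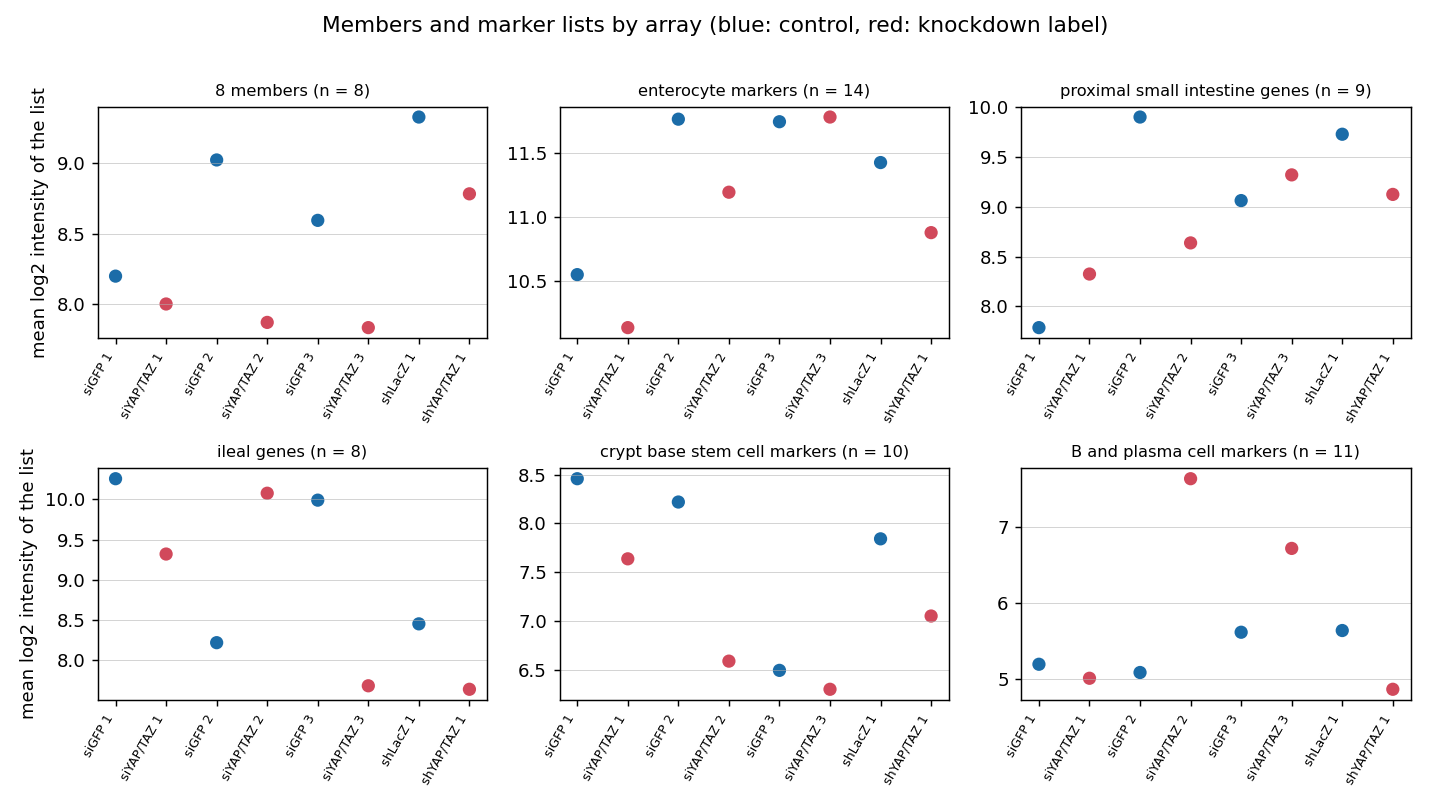
Mean log2 intensity of the 8 members and of 5 marker lists on each array, with control arrays in blue and arrays labelled as knockdown in red. The member mean is lower in the knockdown array of each pair, and the proximal and ileal lists move in opposite directions between siGFP 1 and siGFP 2.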

How the data were processed

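Per the labels, biotin-labelled RNA from isolated epithelial cells was hybridised to Affymetrix arrays. The authors deposited a linear intensity for each of 28853 probe sets. Their background correction, summarisation and scaling were not given in the sources used here. If a constant of about 16 had been added, log2 differences of dim genes between single arrays would be understated. A mean over pairs of opposite sign need not be. With 15 subtracted, the siRNA difference of Pdk4 was -1.14 rather than -1.28. Those of all other members were larger in size, as for Angptl4, at -1.43 rather than -1.15. Values were put on the log2 scale and quantile normalized. Of the probe sets, 21789 named 1 gene. Of these, 21698 were matched by gene identifier to a RefSeq table and took its symbol, whether or not it differed. The brightest probe set stood for each of 19938 genes. No dim gene was left out of the main comparisons.

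Groups came from the titles. siYAP/TAZ was compared with siGFP (3 arrays each), and knockdown with control over the 4 label-assigned pairs, with limma 3.58.1 in R 4.3.3, p-values adjusted over all genes (Benjamini-Hochberg, threshold 0.05); SEs are limma's. Single genes had exact permutation tests. The fits were tested on simulated data. Precision is limited by the number of arrays. Genes named are the 8 members, the 3 largest siRNA differences in each pathway list, the targets and 5 genes with the most similar profile; 4 further genes, called over the 4 pairs, were named after their values were seen. Members and lists were chosen with earlier results of these data known. Alternatives covered normalization, probe sets, dim genes, spread estimates, pairing and left-out arrays.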

Additional observations from a re-analysis of the deposited data

How the results depend on the processing

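All 8 members were lower in the siRNA mean under 15 of the 16 alternatives run. Without siYAP/TAZ 1 there were 7, with Ehhadh at 0.058. Several of the 16 could not move these means and left each member difference unchanged. They were the mean of all probe sets, leaving out dim genes, the replicate block, another spread estimate and the fit of all 8 arrays. The member median lay between -0.76 and -0.48 with 1 siRNA array left out and was -1.09 with array weights. Over all genes, limma called 0 in the siRNA arm, 0 to 13 with 1 array left out (13 without siYAP/TAZ 1), 1 with the replicate block and 61 without the arrays numbered 1, an alternative added after seeing the data. Over the 4 pairs it called 4 genes, 1 to 26 with 1 pair left out, 15 with arrays centred on the 75th percentile, 19 without normalization, 8 without the dimmest of 3 equal groups of genes, 0 with no replicate block and 2 with 15 subtracted from each deposited value before log2, also added later. No member passed in any of these except Pdk4 and Angptl4 without the arrays numbered 1. Members lower in all 4 pairs numbered 3 with 75th percentile centring, which turned Hadha in siRNA pair 1. The causes were not tested. The pairs are those the labels name. Deviations of same-numbered siRNA arrays from their group means had r = 0.755, -0.13 and 0.571 across genes in pairs 1, 2 and 3, and siGFP 3 with siYAP/TAZ 2 had 0.583, so the data do not show that the numbers pair the arrays, and counts over the 4 pairs rest on the labels.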

Other observations

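Outside the pathway lists, the 5 genes whose profile over the 8 arrays was most like the mean of the 8 members, among 9897 genes brighter than the median, were Dhrs4, Aco1, Nags, Tmem243 and Cyb5a. Pearson's r ran from 0.931 for Cyb5a to 0.956 for Dhrs4 and Spearman's rho from 0.833 for Aco1 to 0.952 for Tmem243; these values describe the same 8 arrays and were picked as the highest. The choice by likeness to a mean that was itself lower in every pair leaves their direction no independent result. Dhrs4, a short-chain dehydrogenase that reduces retinoids, had pair differences of -0.59, -0.85, -0.58 and -0.79. Aco1, cytosolic aconitase, which doubles as an iron-responsive RNA-binding protein, had -0.53, -0.89, -0.41 and -0.85. Nags, the enzyme that makes the activator of the urea cycle, had -0.25, -0.28, -0.36 and -0.45. Cyb5a, cytochrome b5, had -0.47, -1.45, -0.31 and -1.01, and Tmem243 had -0.30, -1.32, -0.50 and -0.27.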
